A study of Oryza sativa with 6 samples.

Results

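Genes of the cellulose synthase superfamily, the expansins and the xyloglucan endotransglucosylase/hydrolases (XTH) were examined in rice tissue at the feeding site of the Asian rice gall midge. A gene was taken as a member when its symbol or a synonym in the rice gene table was CESA, CSL with a letter, EXPA, EXPB, EXLA, EXLB or XTH followed by a number, and when a probe set of the array named that gene alone. This gave 71 of the 57381 probe sets on the array, standing for 59 genes, while 26 further genes of these names had no probe set assigned to them. The members comprise 9 CESA genes (13 probe sets), 20 CSL genes (24 probe sets), 29 expansin and expansin-like genes (33 probe sets) and a single XTH gene, XTH8.

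The host was the resistant indica rice RP2068-18-3-5 (RP). In RP-I, plants aged 15 days were exposed to 25 females and 10 males of gall midge biotype 1 (GMB1), to which RP is resistant. In RP-UI, trays of the same plants were kept without midges and handled in the same way. All trays of both groups were moved to a humidity chamber 48 h after the release of the insects. From each plant 1 cm of the stem region was cut at the maggot feeding site, or from the matching site without maggots. This was done at 24, 48 and 72 hai, counted in hours after infestation with the finding of established maggots set as 24 hai, and the material of those time points was joined before hybridization to the Affymetrix Rice Genome Array. Each group thus has 3 arrays, 1 for each tray, and every value joins the cuts at 24, 48 and 72 hai, which cannot be told apart. The insects were taken off the tissue, so that the RNA is meant to be that of the plant.

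Plant cells lay down cellulose from rosettes of cellulose synthase (CESA) proteins in the plasma membrane. Separate sets of CESA proteins serve the primary wall of growing cells and the thick secondary wall of xylem and fibres, and rice lines that lack CESA4, CESA7 or CESA9 have brittle culms. The CSL proteins make the backbones of other wall polysaccharides, and in grasses the CSLF and CSLH groups make the mixed-linkage glucan that is typical of their walls. Expansins loosen the bonds between cellulose and other polymers as cells enlarge, and XTH enzymes cut and rejoin xyloglucan.

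Values are log2 signals made by RMA, which sets all arrays to a like distribution, and a difference of 1 is a 2-fold change. Differences are RP-I minus RP-UI on this scale, with the standard error (SE) of limma's moderated fit, and adjusted p-values are Benjamini-Hochberg values over the 51532 probe sets with a mean signal at or above the 10th percentile. Of the member probe sets 66 passed this filter, and the other 5 are described at the end. RP-I 3 stood apart from the other RP-I arrays. It correlated with RP-UI 3 at r = 0.968 over the probe sets kept, and with RP-I 1 and RP-I 2 at r = 0.961 and 0.954, while RP-UI 3 correlated with RP-UI 1 and RP-UI 2 at r = 0.973 and 0.957. Same-numbered arrays deviated from their group means alike (r = 0.521, 0.308 and 0.624 for numbers 1, 2 and 3). Arrays numbered 1 and 2 also did so across numbers (r = 0.244 and 0.295), and the labels do not say that a number joins trays of both groups. With this limit, a blocked adjusted p, from limma's fit with replicate number as a block, is given where it changes a call and for some genes besides. Genes are said to have risen or fallen in the blocked fit where that value was under 0.05.

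No member reached an adjusted p under 0.05 with limma, where 0.563% of all probe sets did (0.235% higher and 0.328% lower in RP-I), and the smallest adjusted p among the members was 0.0689. At an unadjusted p of 0.05 or under there were 24 of 66 member probe sets (36.4%), 9 higher and 15 lower in RP-I, against 14.2% of all probe sets (6.58% higher and 7.65% lower). A 2-fold difference besides was seen in 4 higher and 6 lower member probe sets, against 5.56% of all probe sets (2.66% higher and 2.90% lower). In the blocked fit 10 of 66 (15.2%) passed, of which 7 rose and 3 fell, against 8.50% of all probe sets (4.06% and 4.44%). With replicates 1 and 2 only, a setting chosen after RP-I 3 was seen to stand apart, 3 members passed (CSLE2, EXPA1 and EXPB6, all higher in RP-I), against 4.84% of all probe sets. In 27 of the 66 (40.9%) the groups did not overlap, 9 with all RP-I arrays above and 18 with all below the RP-UI arrays, while this held for 18.9% of all probe sets, 9.12% above and 9.73% below. The mean was higher in RP-I for 28 and lower for 38 member probe sets, against 51.4% and 48.6% of all probe sets, and the median difference was -0.14 over the members and 0.01 over all probe sets. With a single probe set for each gene, that of highest signal, 23 genes had a higher and 32 a lower mean in RP-I. In the blocked fit 4 of these genes rose and 3 fell (12.7%), so the 7 rises above include genes counted more than once or by a probe set of lower signal.

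**Figure D1:**
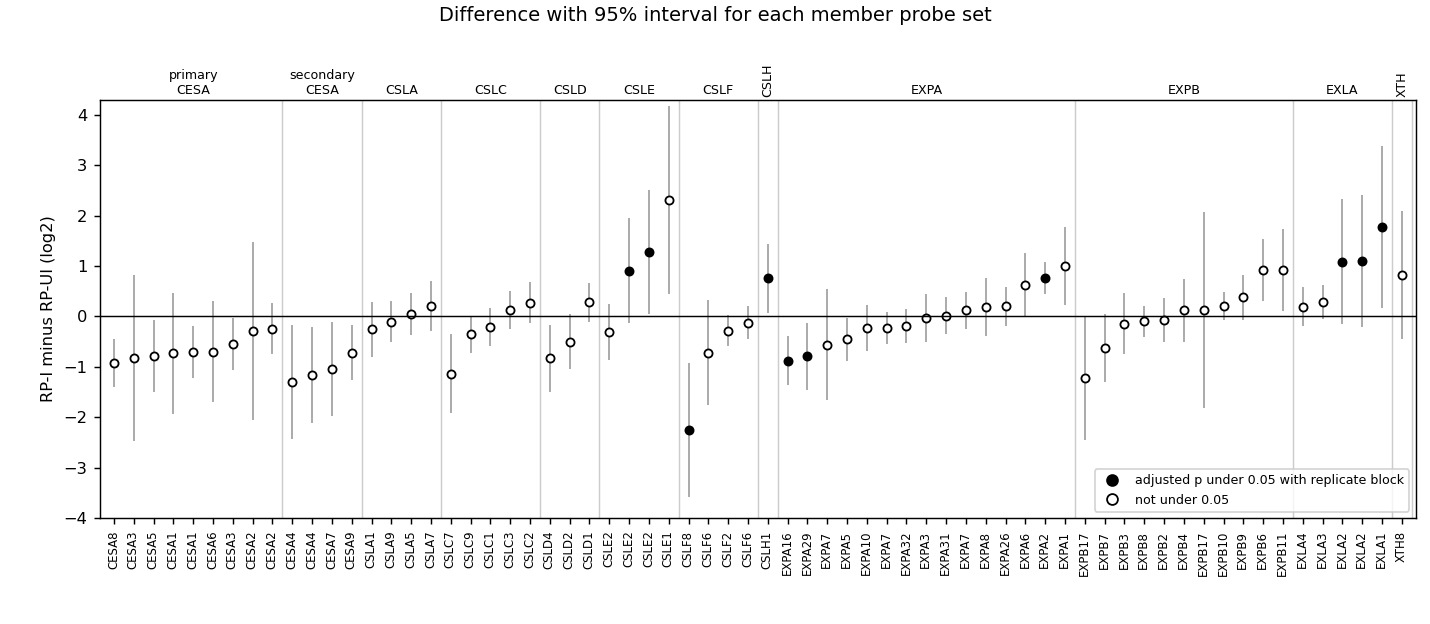
Each point is the difference RP-I minus RP-UI (log2, vertical axis) of 1 of the 66 member probe sets (horizontal axis, named by gene and sorted within each gene group), and the lines are 95% intervals of limma's moderated fit on 3 arrays a group. Filled points have an adjusted p under 0.05 in the blocked fit. All 13 CESA points lie below 0, all 5 EXLA points lie above it, and CSLF8 has the lowest value, -2.25.

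The CESA genes had lower signals at the feeding site throughout. All 13 probe sets of the 9 genes were lower in RP-I on average, where 48.6% of all probe sets were, and each was lower in all 3 pairs of same-numbered arrays, as were 22.0% of all probe sets. The median difference was -0.70 over the 9 primary wall probe sets and -1.11 over the 4 secondary wall probe sets. With limma 0 of the 13 had an adjusted p under 0.05, blocked or not. Of all probe sets, 0.328% were so called as lower without the block and 4.44% with it. Unadjusted, 8 reached 0.05 or less, where 7.65% of all probe sets did so in this direction. In 7 all RP-I arrays lay below all RP-UI arrays, as in 9.73% of all probe sets. In tissue samples, fewer cells of a kind and less RNA per cell cannot be told apart, which applies to each difference given here.

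**Figure D2:**
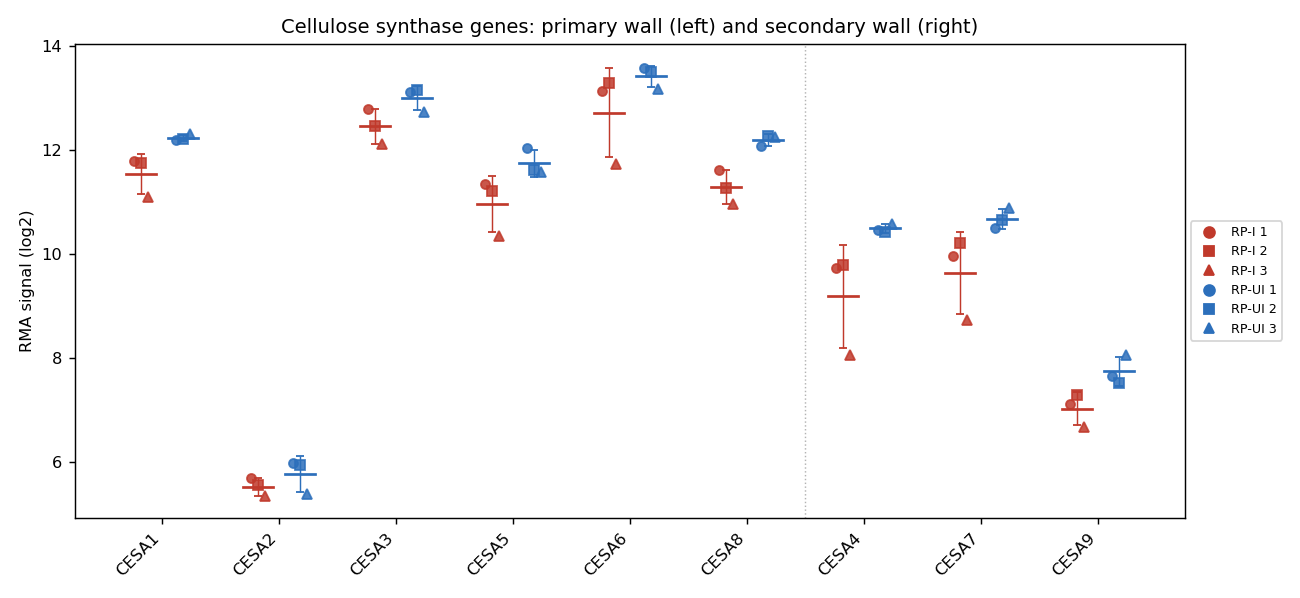
Log2 RMA signal (vertical axis) of each array for the 9 CESA genes (horizontal axis), by the probe set of highest signal, with RP-I in red and RP-UI in blue and the replicate numbers as symbols. Horizontal bars are means and vertical lines are ± 1 SD (n = 3). RP-I 3, the red triangle, is the lowest array in every gene shown. In the second probe sets of CESA1, CESA2 and CESA3, which are not shown, RP-I 3 was instead the highest RP-I array.

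Among the primary wall CESA genes, CESA8 (LOC4342699) came closest to passing. Its log2 signal was 11.62, 11.27 and 10.96 in RP-I 1, 2 and 3, against 12.07, 12.27 and 12.25 in RP-UI 1, 2 and 3, so that the groups did not overlap (difference -0.92 ± 0.20 SE, adjusted p = 0.0968, blocked adjusted p = 0.0542). The signal in RP-I was 0.530 times that in RP-UI. For CESA1 (LOC4337958) the values were 11.78, 11.74 and 11.08 in the RP-I arrays, against 12.19, 12.21 and 12.30 in the RP-UI arrays, again without overlap (difference -0.70 ± 0.22 SE, adjusted p = 0.200). A second CESA1 probe set, of lower signal, had a difference of -0.73 with overlapping groups (95% interval -1.93 to 0.47). CESA5 (LOC4334710) had signals of 11.33, 11.20 and 10.34 in the RP-I arrays, against 12.03, 11.61 and 11.57 in the RP-UI arrays (difference -0.78 ± 0.30 SE, adjusted p = 0.304), and these did not overlap either.

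For CESA3 (LOC4343049) the log2 signal was 12.78, 12.46 and 12.12 in the RP-I arrays, against 13.10, 13.16 and 12.74 in the RP-UI arrays (difference -0.55 ± 0.22 SE, adjusted p = 0.327). Only RP-I 1 reached into the range of the RP-UI arrays, which RP-UI 3 extends downwards. Its other probe set had a similar difference, -0.83, with a much wider interval (-2.48 to 0.82). CESA6 (LOC4342850) had signals of 13.14, 13.28 and 11.73 in the RP-I arrays, against 13.57, 13.50 and 13.18 in the RP-UI arrays (difference -0.70 ± 0.42 SE, adjusted p = 0.577). Here RP-I 3 decided the size of the difference, which was -0.20 without that array. CESA2 (LOC4334515), with 5.52 ± 0.17 in RP-I and 5.76 ± 0.34 in RP-UI (SD, n = 3 each), had the smallest difference of the CESA genes, -0.24 (95% interval -0.75 to 0.26), and -0.29 in its second probe set, which changed sign without RP-UI 3 (0.32).

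The secondary wall genes CESA4, CESA7 and CESA9 work together in one complex. In all 4 of their probe sets, which stand for 3 genes, every RP-I array lay below every RP-UI array, as in 9.73% of all probe sets. CESA4 (LOC4324625) had log2 signals of 9.73, 9.78 and 8.04 in RP-I 1, 2 and 3, against 10.46, 10.42 and 10.57 in RP-UI 1, 2 and 3 (difference -1.30 ± 0.47 SE, adjusted p = 0.273, blocked adjusted p = 0.131). Its second probe set, which carries the same target number and is not an independent measure, gave -1.17 (adjusted p = 0.242). CESA7 (LOC4348853) had 9.96, 10.20 and 8.73 in the RP-I arrays, against 10.49, 10.65 and 10.88 in the RP-UI arrays (difference -1.04 ± 0.39 SE, adjusted p = 0.292). CESA9 (LOC4347093) had 7.11, 7.29 and 6.66 in the RP-I arrays, against 7.65, 7.52 and 8.04 in the RP-UI arrays (difference -0.72 ± 0.22 SE, adjusted p = 0.207). The RP-UI arrays were tight in CESA4 and CESA7 (SD 0.08 and 0.20), and the RP-I arrays were not (SD 0.99 and 0.79), since RP-I 3 lay far below the others.

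Between same-numbered arrays the CESA4 difference was -0.73, -0.64 and -2.53 in pairs 1, 2 and 3, that of CESA7 was -0.53, -0.45 and -2.15 in pairs 1, 2 and 3, and that of CESA9 was -0.54, -0.23 and -1.38 in pairs 1, 2 and 3. The difference in pair 3 was thus more than 2 times that in the other pairs for each of the 3 genes. Without RP-I 3 the differences were -0.73 for CESA4, -0.59 for CESA7 and -0.54 for CESA9, all still below 0. For the primary wall genes the medians of pairs 1, 2 and 3 were -0.34, -0.47 and -1.08, and for the secondary wall genes -0.62, -0.54 and -2.16. The medians over all probe sets kept were -0.03, -0.01 and 0.05 in the same pairs.

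**Figure D3:**
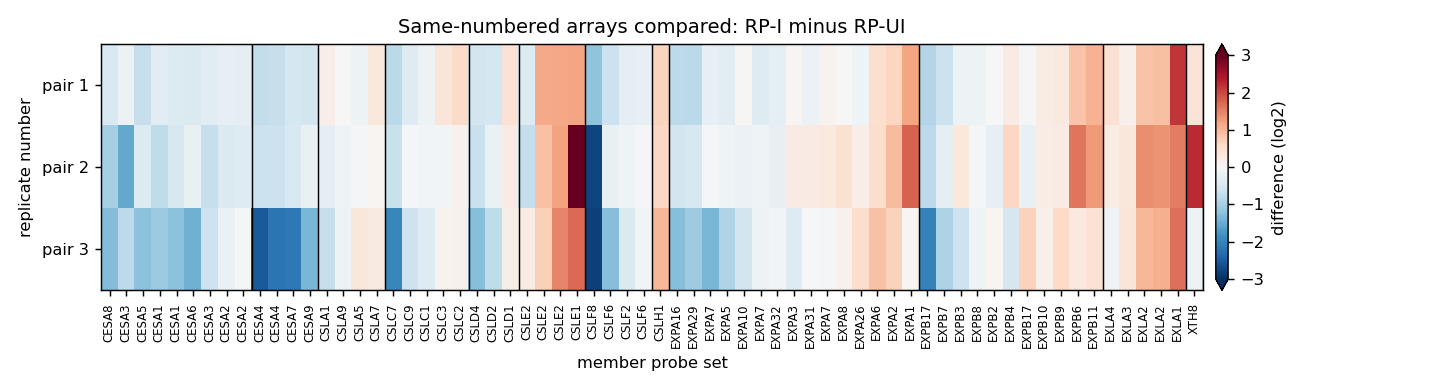
Colours give the log2 difference between same-numbered arrays, RP-I minus RP-UI, for pairs 1, 2 and 3 (rows) in each of the 66 member probe sets (columns, in the order of the plot of differences), with red for higher and blue for lower in RP-I. Black lines part the gene groups. All CESA values are below 0 in every row, though some are close to white, such as CESA2 in pair 3 (-0.04). The columns of the secondary wall genes are darkest in pair 3, with a median of -2.16.

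Genes of dividing cells were lower in RP-I as well. All 6 probe sets of B-type cyclins and CDKB2-1, a kinase of mitosis, had every RP-I array below every RP-UI array, as had 9.73% of all probe sets. Their summed linear signal was 1077 to 4626 in RP-I and 7982 to 9357 in RP-UI. In the blocked fit 3 of them fell, CDKB2-1 among these (difference -2.11, blocked adjusted p = 0.0333), against 4.44% of all probe sets. Signals of photosynthetic leaf genes (11 probe sets) summed to 9757 to 16881 in RP-I and to 24102 to 33471 in RP-UI. Of the 10 that passed the filter 6 were lower on average, against 48.6% of all probe sets. The sums rested mostly on CAB2R, whose 2 probe sets had the highest RP-UI means (13.89 and 13.10) and differences of -1.32 and -1.59. The 4 with a higher mean were all of RBCS, with differences from 0.003 to 0.41. Shoot meristem genes of the KNOX class were higher in RP-I on average in 5 of 5 probe sets, against 51.4% of all probe sets. Their sums were 968 to 1289 in RP-I and 409 to 651 in RP-UI. OSH71 rose (difference 1.64, adjusted p = 0.0476), as did 0.235% of all probe sets. The list of xylem and fibre genes (12 probe sets) did not separate the groups by its sum, with 3803 to 4805 in RP-I and 3734 to 3997 in RP-UI. Against 48.6% of all probe sets, 8 of the 11 in the list that passed the filter were lower on average. The laccase LAC7 ran against these, with 8.97, 8.88 and 11.11 in the RP-I arrays, against 5.72, 5.37 and 8.65 in the RP-UI arrays (difference 3.07 ± 1.01 SE, adjusted p = 0.230, blocked adjusted p = 0.0150), and all RP-I arrays were also above all RP-UI arrays in LAC24 (difference 1.55, adjusted p = 0.289). Summed without LAC7, a choice made after its values were seen, the list gave 2591 to 3775 in RP-I and 3499 to 3956 in RP-UI. Of the genes that were lower, BC1, a COBRA-like protein needed for cellulose assembly, had 8.76, 9.001 and 6.21 in the RP-I arrays, against 9.26, 9.33 and 9.25 in the RP-UI arrays (difference -1.29 ± 0.72 SE, adjusted p = 0.530), with RP-I 3 far below the rest as in CESA4. The part of these shifts in the CESA values was not tested, and RMA gives no value of 0 that could show a marker to be absent.

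The CSL groups differed among themselves in direction. Of 21 CSL probe sets above the filter 9 were higher and 12 lower in RP-I on average (51.4% and 48.6% of all). In the blocked fit 3 rose and 1 fell, against 8.50% of all probe sets that passed in it. Without the block 0 passed, against 0.563% of all probe sets. At an unadjusted p of 0.05 or under there were 6, against 14.2% of all probe sets.

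The CSLF genes make mixed-linkage glucan, and CSLF8 (LOC4343552) had the lowest difference of all members. Its log2 signal was 7.63, 6.20 and 5.42 in RP-I 1, 2 and 3, against 8.84, 8.95 and 8.22 in RP-UI 1, 2 and 3 (difference -2.25 ± 0.55 SE, adjusted p = 0.127). In the blocked fit it fell (adjusted p = 0.0279), and the signal in RP-I was 0.210 times that in RP-UI. The 3 RP-I arrays lay far apart from each other, though each was below each RP-UI array, and without RP-I 3 the difference was -1.75. CSLF6 (LOC4344719), the main gene of this activity in vegetative tissue, had 10.20, 10.65 and 10.98 in the RP-I arrays, against 10.85, 10.87 and 12.27 in the RP-UI arrays in its probe set of highest signal (difference -0.72 ± 0.43 SE, adjusted p = 0.573). Its groups overlapped, and RP-UI 3 was the highest array, without which the difference was -0.25. A second probe set of CSLF6, of low signal, had a difference of -0.12 (adjusted p = 0.822). CSLF2 (LOC4343553), a neighbour of CSLF8 on the chromosome, had low signals that did not overlap, 4.01 ± 0.08 in RP-I and 4.29 ± 0.09 in RP-UI (SD, n = 3 each), and a difference of -0.28 (adjusted p = 0.411).

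CSLH1 (LOC4348359), whose counterpart in barley also makes mixed-linkage glucan, had a higher mean in RP-I. Its signals on the log2 scale were 10.02, 9.58 and 10.55 in RP-I 1, 2 and 3, against 9.36, 8.96 and 9.55 in RP-UI 1, 2 and 3 (difference 0.76 ± 0.28 SE, adjusted p = 0.295), without overlap, and it rose in the blocked fit (adjusted p = 0.0393). Within pairs the CSLH1 difference was 0.66, 0.62 and 1.00 in pairs 1, 2 and 3.

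The CSLE group, whose product is not settled, held the highest difference among the members. CSLE1 (LOC4347370) had log2 signals of 9.26, 9.18 and 9.62 in RP-I 1, 2 and 3, against 8.08, 5.13 and 7.93 in RP-UI 1, 2 and 3 (difference 2.31 ± 0.77 SE, adjusted p = 0.238, blocked adjusted p = 0.0747). The RP-I arrays were close together and above all RP-UI arrays, while RP-UI 2 was far below the other RP-UI arrays. Without RP-UI 2 the difference was 1.35. CSLE2 (LOC4330583) has 3 probe sets that disagreed. That of highest signal had 8.92, 8.65 and 8.86 in the RP-I arrays, against 9.33, 9.37 and 8.65 in the RP-UI arrays (difference -0.30 ± 0.23 SE, adjusted p = 0.697). The second had 7.51, 7.32 and 8.87 in the RP-I arrays, against 6.34, 6.12 and 7.40 in the RP-UI arrays (difference 1.28 ± 0.51 SE, adjusted p = 0.328), and the third had a difference of 0.91 (adjusted p = 0.439). The second and the third rose in the blocked fit (adjusted p = 0.0169 and 0.0273) and were higher in RP-I in each pair, while the first was lower in pairs 1 and 2 and higher in pair 3. By its name the second is of a type that can also bind related transcripts. The probe set names do not show which part of the transcript each covers.

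CSLC proteins make the glucan backbone of xyloglucan, and CSLC7 (LOC4339283) had the largest difference in this group. The CSLC7 probe set is of a type that can also bind related transcripts. Signals of CSLC7 were 10.84, 10.99 and 9.77 in RP-I 1, 2 and 3, against 11.65, 11.65 and 11.73 in RP-UI 1, 2 and 3 (difference -1.14 ± 0.33 SE, adjusted p = 0.172, blocked adjusted p = 0.0767). The RP-UI arrays were close together and all RP-I arrays lay below them, with -0.76 for the difference without RP-I 3. CSLC9 was likewise lower without overlap, with 10.21 ± 0.18 in RP-I and 10.56 ± 0.13 in RP-UI (SD, n = 3 each), and its difference was -0.35 ± 0.15 SE (adjusted p = 0.377). CSLC1, CSLC2 and CSLC3 had differences of -0.21, 0.28 and 0.13 with overlapping groups.

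In the CSLD group, which acts in cells that divide or grow at the tip, CSLD4 (LOC107276048) had 6.99, 6.74 and 7.09 in the RP-I arrays, against 7.55, 7.40 and 8.37 in the RP-UI arrays (difference -0.83 ± 0.28 SE, adjusted p = 0.236, blocked adjusted p = 0.0574). Rice lines without this gene are dwarfed with narrow leaves, and its groups did not overlap here. The CSLD4 probe set is also of a type that can bind related transcripts. CSLD2 had 9.12 ± 0.40 in RP-I and 9.61 ± 0.16 in RP-UI (SD, n = 3 each), a difference of -0.50 without overlap (adjusted p = 0.409), and CSLD1, known from root hairs, had low signals and a difference of 0.29 (adjusted p = 0.540). The 4 CSLA genes, a group of mannan synthases, had small differences, between -0.26 (CSLA1, 95% interval -0.80 to 0.29) and 0.21 (CSLA7, 95% interval -0.29 to 0.71), and all overlapped.

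**Figure D4:**
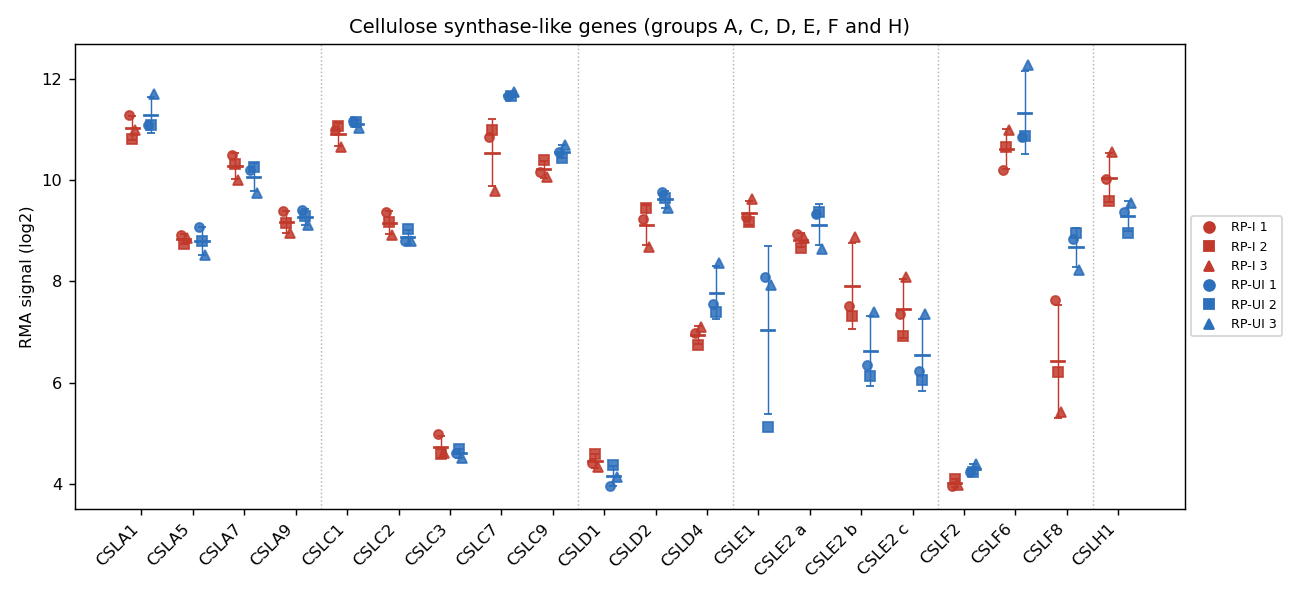
Log2 RMA signal (vertical axis) of each array for the CSL genes (horizontal axis), by the probe set of highest signal except CSLE2, whose 3 probe sets are shown as a, b and c in order of signal. RP-I is red and RP-UI blue, symbols are replicate numbers, bars are means and vertical lines ± 1 SD (n = 3). CSLF8 and CSLC7 show all RP-I points below the RP-UI points, and CSLE1 and CSLH1 show them above.

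Expansins and expansin-like genes had differences in both directions. Of their 31 probe sets that passed the filter, 18 were higher and 13 lower in RP-I on average (51.4% and 48.6% of all). In the blocked fit 4 rose and 2 fell, where 8.50% of all probe sets passed. The expansin-like A probe sets gave 5 of the higher means and 3 of the rises. Among alpha-expansins 1 rose and 2 fell, and among beta-expansins 0 passed. Groups did not overlap in 12 of the 31, 7 above and 5 below, against 18.9% of all probe sets.

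For the expansin-like A genes no wall-loosening activity is established. They were higher in RP-I on average in 5 of 5 probe sets (median difference 1.08), against 51.4% of all probe sets. In 4 of the 5 this held in all 3 pairs, as it did for 22.3% of all probe sets. EXLA1 (LOC4331516) had log2 signals of 10.49, 10.99 and 12.25 in RP-I 1, 2 and 3, against 8.35, 9.46 and 10.60 in RP-UI 1, 2 and 3 (difference 1.78 ± 0.67 SE, adjusted p = 0.299). The groups overlapped, and in each pair RP-I was higher (2.14, 1.52 and 1.66 in pairs 1, 2 and 3), and EXLA1 rose in the blocked fit (adjusted p = 0.0159). EXLA2 (LOC4349265) also had its highest array of each group in number 3, with 9.93, 10.85 and 11.52 in the RP-I arrays, against 9.08, 9.45 and 10.53 in the RP-UI arrays (difference 1.08 ± 0.51 SE, adjusted p = 0.432, blocked adjusted p = 0.0244). Its second probe set, which carries the same target number and is not an independent measure, gave 1.10 and rose as well (blocked adjusted p = 0.0208). EXLA3 and EXLA4 had smaller differences, 0.29 and 0.20 (adjusted p = 0.453 and 0.726).

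Alpha-expansins (EXPA) were divided, with 7 probe sets higher and 8 lower in RP-I on average (51.4% and 48.6% of all). Their median difference was -0.03. EXPA2 (LOC4327568) had the smallest adjusted p of all members. The log2 signals were 10.32, 10.52 and 10.30 in RP-I 1, 2 and 3, against 9.69, 9.56 and 9.62 in RP-UI 1, 2 and 3, tight in both groups and far from overlapping (difference 0.76 ± 0.13 SE, adjusted p = 0.0689, blocked adjusted p = 0.0361). The difference varied little when single arrays were left out, from 0.69 to 0.80. EXPA1 (LOC4335222) had the largest difference, with 9.10, 9.54 and 8.37 in the RP-I arrays, against 7.92, 7.76 and 8.30 in the RP-UI arrays (difference 1.01 ± 0.32 SE, adjusted p = 0.215, blocked adjusted p = 0.153). No RP-I array overlapped the RP-UI arrays, yet pair 3 differed by only 0.06, against 1.18 and 1.78 in pairs 1 and 2. EXPA6 was higher in RP-I without overlap, with 11.19 ± 0.44 in RP-I and 10.56 ± 0.24 in RP-UI (SD, n = 3 each), an adjusted p of 0.346 and a blocked adjusted p of 0.0615.

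In the other direction, EXPA16 (LOC4341549) had 8.64, 8.48 and 8.04 in the RP-I arrays, against 9.43, 9.03 and 9.32 in the RP-UI arrays (difference -0.88 ± 0.21 SE, adjusted p = 0.116) and fell in the blocked fit (adjusted p = 0.0488). EXPA29 (LOC4342086) had 7.91, 8.68 and 7.75 in the RP-I arrays, against 8.73, 9.17 and 8.82 in the RP-UI arrays (difference -0.79 ± 0.28 SE, adjusted p = 0.260) and fell in the blocked fit too (adjusted p = 0.0475). In both genes all RP-I arrays were below all RP-UI arrays. EXPA5 (LOC4330706) had 11.28 ± 0.13 in RP-I and 11.74 ± 0.27 in RP-UI (SD, n = 3 each) and a difference of -0.46 (adjusted p = 0.319), also without overlap. The remaining EXPA probe sets had differences from -0.56 (EXPA7, highest-signal probe set) to 0.20 (EXPA26) with adjusted p-values of 0.560 or above, and EXPA3, EXPA8, EXPA31 and EXPA32 were dim in all arrays.

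Beta-expansins (EXPB), the group that includes grass pollen allergens, had 6 probe sets higher and 5 lower on average (51.4% and 48.6% of all). Of the EXPB probe sets 3 were at 0.05 or less unadjusted, against 14.2% of all probe sets. In either fit 0 passed, against 0.563% of all probe sets without the block and 8.50% with it. EXPB11 (LOC4330213) had 11.31, 12.28 and 11.66 in the RP-I arrays, against 10.27, 11.01 and 11.22 in the RP-UI arrays (difference 0.92 ± 0.34 SE, adjusted p = 0.288, blocked adjusted p = 0.0532). EXPB6 (LOC4349347) had 8.23, 8.79 and 8.22 in the RP-I arrays, against 7.38, 7.20 and 7.92 in the RP-UI arrays (difference 0.91 ± 0.26 SE, adjusted p = 0.166). Both had all RP-I arrays above all RP-UI arrays.

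EXPB6 stands in a run of 4 genes with EXPB2, EXPB3 and EXPB4 in the rice assembly ASM3414082v1, with at most 2 other genes between neighbours. The differences in this run were 0.91 for EXPB6, -0.07 for EXPB2, -0.15 for EXPB3 and 0.12 for EXPB4 (95% intervals 0.30 to 1.53, -0.51 to 0.36, -0.75 to 0.46 and -0.50 to 0.75). The probe set of EXPB4 is of a type that can also bind transcripts of related genes. EXPB17 (LOC4336479) had 10.71, 10.46 and 8.82 in the RP-I arrays, against 11.59, 11.24 and 10.85 in the RP-UI arrays (difference -1.23 ± 0.51 SE, adjusted p = 0.350, blocked adjusted p = 0.0611), with RP-I 3 lowest and a difference of -0.65 without it. A second EXPB17 probe set had 7.18, 6.96 and 5.39 in the RP-I arrays, against 7.25, 7.18 and 4.70 in the RP-UI arrays, a difference of 0.13 with an interval of -1.81 to 2.08, in which both arrays numbered 3 were far below the rest.

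XTH8 (LOC4345019), a gibberellin-induced XTH of rice, was the only XTH the rule could find. Log2 signals of XTH8 were 12.55, 12.72 and 12.42 in RP-I 1, 2 and 3, against 12.16, 10.48 and 12.58 in RP-UI 1, 2 and 3 (difference 0.82 ± 0.53 SE, adjusted p = 0.614). RP-UI 2 was far below the other arrays, and without it the difference was 0.19. The XTH family as a whole is thus not covered by these values.

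**Figure D5:**
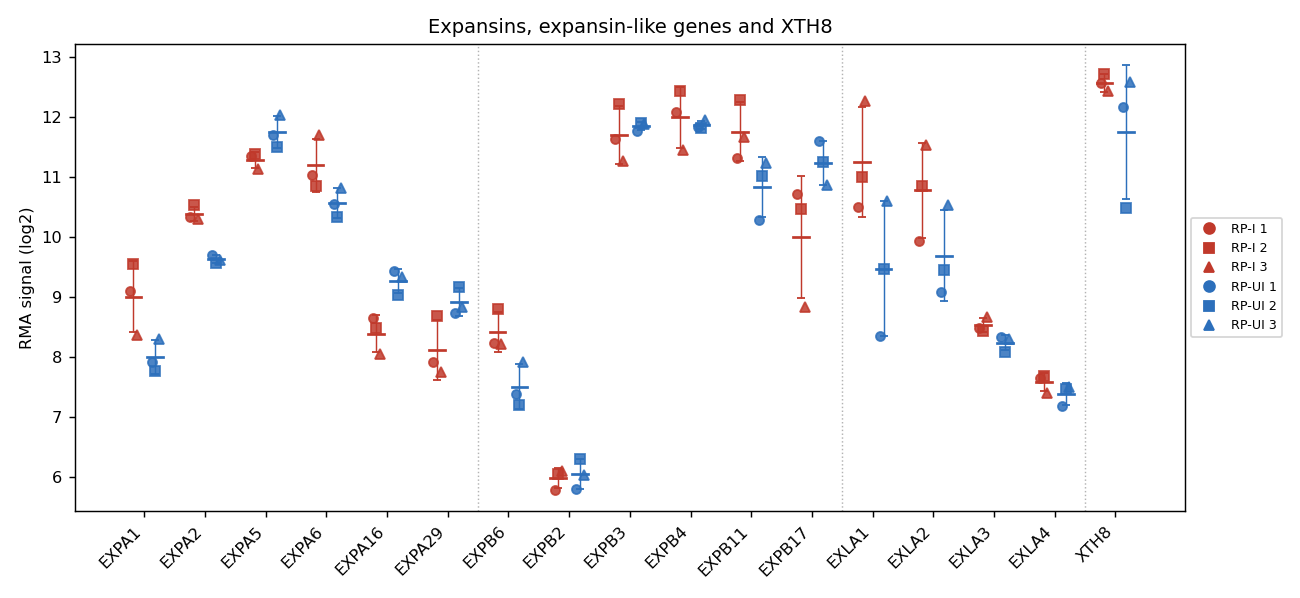
Log2 RMA signal (vertical axis) of each array for alpha-expansins, beta-expansins, expansin-like genes and XTH8 (horizontal axis, parted by dotted lines), by the probe set of highest signal. RP-I is red and RP-UI blue, symbols are replicate numbers, bars are means and vertical lines ± 1 SD (n = 3). EXPA2 is tight and higher in RP-I, EXPA16 is lower, and EXLA1 and EXLA2 have widely spread points with a higher mean in RP-I.

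Further lists of wall genes were set by symbol, of which that of secondary wall regulators matched no gene. The others held 53 probe sets of 45 genes, 17 higher and 36 lower in RP-I on average (median -0.18). Of all probe sets 51.4% were higher and 48.6% lower, shares that also stand beside the counts of each list below. With limma 0 of the 53 had an adjusted p under 0.05, against 0.563% of all probe sets. Unadjusted, 13 reached 0.05 or less, against 14.2% of all probe sets. In the blocked fit 8 of 53 (15.1%) passed, against 8.50% of all. In the list of cellulose assembly and endoglucanases 14 of 17 probe sets had a lower mean, and GLU14, an endoglucanase that trims glucan chains (difference -2.16, adjusted p = 0.0751, blocked adjusted p = 0.0190), and BC1L2, a relative of BC1 (-1.94, adjusted p = 0.0893, blocked adjusted p = 0.0289), fell in the blocked fit, as did 1 probe set of GLU12. In the lignin list, whose genes were taken by symbol and not by known role, 6 probe sets were higher and 8 lower on average. Of these, 4CL2 (-1.53, adjusted p = 0.0764, blocked adjusted p = 0.0274) and CAD3 (-1.59, adjusted p = 0.125, blocked adjusted p = 0.0329) fell in the blocked fit. Of the probe sets for xylan and sugar nucleotides 7 were higher and 10 lower on average. UGD4, which makes UDP-glucuronic acid, fell in the blocked fit (-1.24, adjusted p = 0.0812, blocked adjusted p = 0.0388), and the sucrose synthase SUS4 (2.03, adjusted p = 0.331, blocked adjusted p = 0.0265) and the UDP-sugar pyrophosphorylase USP (0.73, adjusted p = 0.0812, blocked adjusted p = 0.0480) rose in it. The last list, of other wall proteins, had 1 probe set higher and 4 lower, and 0 passed in either fit.

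The 5 member probe sets below the filter were dim in every array. CSLD5 lay between 3.27 and 3.34, CSLF7 between 2.90 and 3.39, EXPA4 between 2.83 and 3.05, and EXPB18 between 3.02 and 4.03, where the highest value was that of RP-UI 1. The last of them, 1 of 3 CSLF6 probe sets, lay between 3.14 and 3.40. No test was made for these.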

How the data were processed

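Transcript levels were measured on 6 Affymetrix Rice Genome Arrays, 3 of RP-I and 3 of RP-UI, as grouped by the sample labels. The authors made the deposited log2 signals from the scans with RMA, which corrects background, quantile-normalizes the arrays and summarizes the probes of each set. GeneSpring is given for this step in the methods, and Expression Console of Affymetrix in the submitters' processing notes. The methods describe pooling of RNA over the time points, the labels pooling of tissue.

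After 123 control probe sets were dropped, those with a 6-array mean below the 10th percentile were removed, which left 51532. RP-I and RP-UI were compared by limma (version 3.58.1, R version 4.3.3; lmFit, eBayes), and p-values were Benjamini-Hochberg adjusted over all that were left. The number of arrays limits the precision. The fit was repeated blocked on replicate number, because deviations from the group means correlated at 0.521, 0.308 and 0.624 in same-numbered arrays, though also at 0.244 and 0.295 between numbers 1 and 2, so number 2 is less surely a pair. By the protocol in the labels each tray is a replicate, the titles number the replicates, and nothing says that a number joins trays of both groups. Intervals are those of the moderated fit at 95%. The procedure was tested on simulated data.

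Gene names were taken from the platform annotation and a RefSeq gene table by gene identifier. Of 57381 probe sets 22436 name 1 gene, 95 several and 34850 none, so families are covered in part. Genes named in the text are all CESA, CSLC and CSLF genes, those that passed in either fit, and in each group the members of highest signal and of largest difference in each direction. EXPA6, EXPB6, further members of small difference or low signal, and genes of the other lists were named besides, after their values were seen. Members and lists were chosen with earlier results of these data known. From the further lists, 2 genes were left out whose names are shared with other proteins (a bHLH factor called BC1 and a ubiquitin ligase called PRP19). Alternatives were a repeated quantile normalization, median centring, other filters, a mean-variance trend, leaving out probe sets that can bind several transcripts, leaving out each array, 1 probe set a gene, and, chosen after seeing the data, replicates 1 and 2 only. Python 3.11.15 with pandas 2.3.3 and matplotlib 3.10.9 was used for tables and figures.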

Additional observations from a re-analysis of the deposited data

How the results depend on the processing

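The choice of fit decided the calls. Over all probe sets limma called 290, and 4379 in the fit blocked on replicate number, 87 with a mean-variance trend and 2492 with replicates 1 and 2 only. Leaving out 1 array gave 0 to 280 calls, with 280 without RP-I 3 and 0 without each of the others. Among the members there were 0 calls, 10 in the blocked fit, 3 with replicates 1 and 2 only, and 0 under each of the other alternatives. The number of members at an unadjusted p of 0.05 or under was 24, and 11 to 21 on leaving out 1 array. The further wall lists had 0 calls, 8 in the blocked fit, 6 with replicates 1 and 2 only, and 0 to 1 on leaving out 1 array (1 without RP-I 3). The median of the CSLE group, 1.09, was 0.91 without probe sets that can bind several transcripts and 1.00 with 1 probe set a gene, and 0.70 to 1.49 on leaving out 1 array. That of EXLA, 1.08, was 0.69 under the first of these and 0.69 under the second, and 0.68 to 1.51 under the third. Without probe sets that can bind several transcripts, the medians were -0.041 for CSLC and -0.11 for CSLD, against -0.21 and -0.50 with them, since CSLC7 and CSLD4 have only such a probe set. With 1 array left out, the CSLA median, -0.028, was -0.10 to 0.077, the EXPB median, 0.12, was -0.10 to 0.21, and EXPB4 was -0.10 to 0.39, with a changed sign without RP-I 2 (adjusted p = 0.960). In all, 10 member probe sets changed sign on leaving out 1 array, among them EXPB2 (0.054 without RP-UI 2), EXPB3 (0.073 without RP-I 3), and the second probe sets of CESA2 and EXPB17, and none of the 10 passed in either fit. The blocked fit changed no call of a named gene besides those given in the report. The medians of both CESA groups stayed below 0 under every alternative.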

Other observations

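The supplementary sheets of the study give wall gene names to 9 probe sets that the annotation used here leaves unnamed or lists under a number, among them 6 of the XTH family. The study chose all of them on these arrays by its own thresholds, so neither their number nor their direction is independent evidence, and the values below are those of the same fit as in the report.

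An XTH annotated there as protein 28 (LOC_Os09g23220) fell at the feeding site. Its log2 signal was 6.63, 6.46 and 6.38 in RP-I 1, 2 and 3, against 8.06, 8.09 and 8.26 in RP-UI 1, 2 and 3 (difference -1.65 ± 0.14 SE, adjusted p = 0.0284). The probe set is of a type that can also bind related transcripts. XTH protein 27 (LOC_Os03g13570) had 8.27, 8.30 and 7.98 in the RP-I arrays, against 9.64, 9.004 and 10.25 in the RP-UI arrays (difference -1.45 ± 0.32 SE, adjusted p = 0.0999), and XTH protein 8 of these sheets (LOC_Os07g34580), which is not the gene XTH8 of the report, had a difference of -1.06 (adjusted p = 0.207). In all 3 every RP-I array was below every RP-UI array.

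Higher signals were found for the others. XTH protein 23 (LOC_Os06g48180) had 8.93, 9.69 and 10.49 in the RP-I arrays, against 7.35, 6.99 and 8.82 in the RP-UI arrays (difference 1.98 ± 0.58 SE, adjusted p = 0.180, blocked adjusted p = 0.0206). XTH protein 30 (LOC_Os03g63760) had 8.004, 7.80 and 9.80 in the RP-I arrays, against 6.17, 5.92 and 7.70 in the RP-UI arrays (difference 1.93 ± 0.68 SE, adjusted p = 0.260, blocked adjusted p = 0.0150). The value of XTH protein 21 (LOC_Os06g22919) was 1.77 (adjusted p = 0.301, blocked adjusted p = 0.0201). These 3 rose in the blocked fit and did not pass without the block, and both arrays numbered 3 were the highest of their groups in each.

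The remaining 3 probe sets carry names of members. A probe set of CESA4 had a difference of -1.08 and 1 of CSLC7 a difference of -1.38, close to the -1.30 and -1.14 of the report. A probe set named CSLF6 had 8.75, 9.05 and 8.19 in the RP-I arrays, against 9.38, 10.44 and 9.43 in the RP-UI arrays (difference -1.09 ± 0.36 SE, adjusted p = 0.227). It fell in the blocked fit (adjusted p = 0.0346), whereas the CSLF6 probe set of the report did not pass (0.137).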
